A study of Mus musculus with 23 samples.

Results

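Mature neurons made up 411 of the 249715 cell barcodes that passed the quality filter (0.165%), out of 265025 barcodes in the deposited matrix of mouse brain cells sorted by uptake of a fluorescent antibody. The filter asked for 500 genes and 800 UMIs (unique molecular identifiers, 1 per captured RNA molecule) or more, and for no more than 10% of UMIs from mitochondrial genes. A barcode then counted as a mature neuron when it held a UMI of 4 or more of Syt1, Snap25, Rbfox3, Snhg11, Meg3, Dlgap2, Kcnh7 and Tenm2. The summed UMIs of these 8 genes also had to reach 2 times those of Aqp4, Gja1, Slc1a3, Cldn5, Flt1, Cx3cr1, P2ry12 and Mog, the markers of astrocytes, endothelial cells, microglia and oligodendrocytes. Barcodes with a UMI of Cga (a pituitary hormone gene), Igfbpl1 (immature neurons) or Pdgfra (oligodendrocyte precursors) were left out. Neurons were thus selected on the UMI counts of these genes, whose levels are given only as a description.

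The study followed where 2 antibody transport vehicles (ATVs) go after they have crossed the capillary wall of the brain. ATV-TfR, labelled DNP02_hIgG1_LALAPG_ATV35.23.2, was given to TfR mu/hu KI mice, which carry a mouse/human knock-in of the transferrin receptor (gene Tfrc). ATV-CD98hc, labelled DNP02 LALAPG LLB2-10-8 monovalent, was given to CD98hc mu/hu KI mice, with a knock-in of the CD98 heavy chain (gene Slc3a2). The control IgG, labelled DNP02_hIgG1_LALAPG, was given to C57BL/6 mice, so treatment and genotype cannot be told apart. All 3 antibodies carried the dye Alexa647 (AF647), were injected intravenously at 45 mg/kg, and the brains were taken after 24 hours. The age of the mice is given both as 3.3 months and as 12 weeks. Olfactory bulbs, cerebellum, pons and medulla were not included, and the tissue was digested in the presence of inhibitors of transcription and translation. Live cells were sorted into negative, low, medium and high bins of AF647 with 1 set of gates, set so that AF647-positive ATV-TfR cells were split evenly. Cells of 1 male and 1 female were pooled, 2 pools were made per treatment, and each pool and bin gave 1 library. ATV-TfR and ATV-CD98hc had 8 libraries each, and control IgG had 7, with 1 library (replicate 2) in the negative bin. The 4 bins of a pool come from the same 2 mice.

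Neurons are the electrically excitable cells of the brain, and they signal by releasing transmitter from synaptic vesicles. Glutamatergic neurons load the vesicles through Slc17a7 or Slc17a6 and excite their targets, while GABAergic neurons make the inhibitory transmitter with Gad1 and Gad2. Neurons import iron through the transferrin receptor. The CD98 heavy chain pairs with amino acid transporter light chains in many cell types, among them the cells of the capillary wall. Long processes and synapses are easily torn off in enzymatic dissociation, so adult neurons are usually recovered less well than glia and vascular cells.

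The neuronal label held for genes that the rule had not used. Each of 18 pan-neuronal genes outside the rule was found in at least 10% of the 411 neurons. Rims1, which organises the site of vesicle release, had a UMI in 350 neurons (85.2%), and Map2, a dendritic microtubule protein, in 316 (76.9%). The pooled median was 6433 UMIs in neurons against 3182 in microglia, with large differences between bins, so detection was also read after each cell had been thinned to 800 UMIs. Map2 was then found in 32.4% of neurons and 3.36% of microglia, Rims1 in 54.8% and 0.278%, and the glutamate receptor subunit gene Grin2b in 54.4% and 0.985%. All 18 pan-neuronal genes, 12 of 12 glutamate receptor subunits, 12 of 12 GABA receptor genes and 15 of 15 sodium, potassium and calcium channels were found more often in thinned neurons than in thinned microglia. Outside the rule, the genes with the highest ratio of neuronal to other CPM (counts per 1e6 UMIs) included Dpp10, which modifies potassium channels, the growth factor gene Nrg3, and Lrfn5, a synaptic adhesion molecule.

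Pooled over the bins, most members lay well inside the rule. All 8 neuronal genes had a UMI in 225 members, 142 of them in ATV-TfR medium, and 338 members held 6 or more. Of the 20 members of ATV-TfR negative, 0 held all 8 and 9 held 6 or more. Of the 11 of ATV-CD98hc high, 0 held all 8 and 6 held 6 or more. At the edge, 35 members held exactly 4 of the genes, with a median of 1692 UMIs, and 46 barcodes just outside held 3 and met every other clause, with a median of 3042 UMIs. The ratio to the markers of other cells removed 160 barcodes that had 4 or more neuronal genes. Of these, 32 had a ratio from 1 to 2, and 10 members had a ratio from 2 to 3. The last clause removed 73 barcodes, of which 39 had a UMI of Pdgfra, 22 of Igfbpl1 and 12 of Cga. Scrublet marked 17 members as possible doublets, 13 of them among the 184 of the ATV-TfR medium bin, and they were kept. Of all filtered barcodes of the ATV-TfR medium libraries it marked 8.09% and 7.23%. In some other libraries the cut was percentile 94 of the score in place of the automatic one. No barcode sequence was shared by neurons of different libraries, and 21 neurons (5.11%) had a sequence that also occurred in another library. Over all filtered barcodes, 7598 of 241978 distinct sequences (3.14%) occurred in 2 or more libraries. That share counts each sequence once, so the 2 percents are not on the same scale.

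Libraries held 1861238 to 90307818 UMIs and 526 to 20570 filtered barcodes. The ATV-CD98hc negative library of replicate 2 stood apart, with 46 neurons among only 3467 filtered barcodes and a median of 1591.5 UMIs per neuron, against 14 neurons with a median of 9419.5 UMIs in replicate 1. Over all bins, 279 neurons (67.9%) came from ATV-TfR, 112 (27.3%) from ATV-CD98hc and 20 from control IgG. Replicates were uneven, with 189 and 90 neurons in the ATV-TfR pools, 22 and 90 in the ATV-CD98hc pools, and 1 and 19 in the control IgG pools, whose first pool has no negative library here.

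In the ATV-TfR mice the share of neurons among barcodes was highest in the medium bin. Replicate 1 held 10 neurons in the negative bin, 19 in the low, 129 in the medium and 31 in the high bin, and replicate 2 held 10, 17, 55 and 8. As a share of filtered barcodes this was 0.111%, 0.118%, 0.804% and 0.159% in replicate 1 and 0.150%, 0.0942%, 0.356% and 0.0454% in replicate 2. In both pools the medium bin was the highest of the 4. Its exact 95% binomial (Clopper-Pearson) interval, which covers counting error only, was 0.672% to 0.955% in replicate 1, above the 0.0534% to 0.205% of the negative bin. In replicate 2 the intervals of 0.268% to 0.463% and 0.0721% to 0.276% just overlapped. The group means were 0.131% ± 0.0276 in the negative bin, 0.106% ± 0.0166 in the low, 0.580% ± 0.317 in the medium and 0.102% ± 0.0800 in the high bin (SD, n = 2 libraries each). The medium bin held 68.3% and 61.1% of the neurons sequenced from the 2 pools, which also depends on how many barcodes each bin gave.

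In the ATV-CD98hc mice the share of neurons among barcodes was highest in the negative bin. Replicate 1 held 14 neurons in the negative bin and 1, 2 and 5 in the low, medium and high bins, and replicate 2 held 46, 21, 17 and 6. The shares were 0.209%, 0.00554%, 0.0112% and 0.0479% in replicate 1 and 1.33%, 0.106%, 0.0826% and 0.0449% in replicate 2. Both pools were highest in the negative bin, and the SD in percent was largest there, as was the mean. By factor, the replicates differed more in the low and medium bins than in the negative bin. The group means were 0.768% ± 0.790 in the negative bin, 0.0557% ± 0.0710 in the low, 0.0469% ± 0.0505 in the medium and 0.0464% ± 0.0022 in the high bin (SD, n = 2). The medium bin held 9.09% and 18.9% of the neurons sequenced from the 2 pools.

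Control IgG gave few positive neurons. The negative library held 17 neurons (0.140%), the low libraries 1 each (0.0445% and 0.0258%), and the medium libraries 0 and 1 (0.125%). No neuron was found in the high libraries, where the small numbers of barcodes allow shares of up to 0.570% and 0.414%, and the empty medium library allows 0.436%. Positive neurons were therefore not detectable in control IgG high bins at the depth of these libraries.

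**Figure D1:**
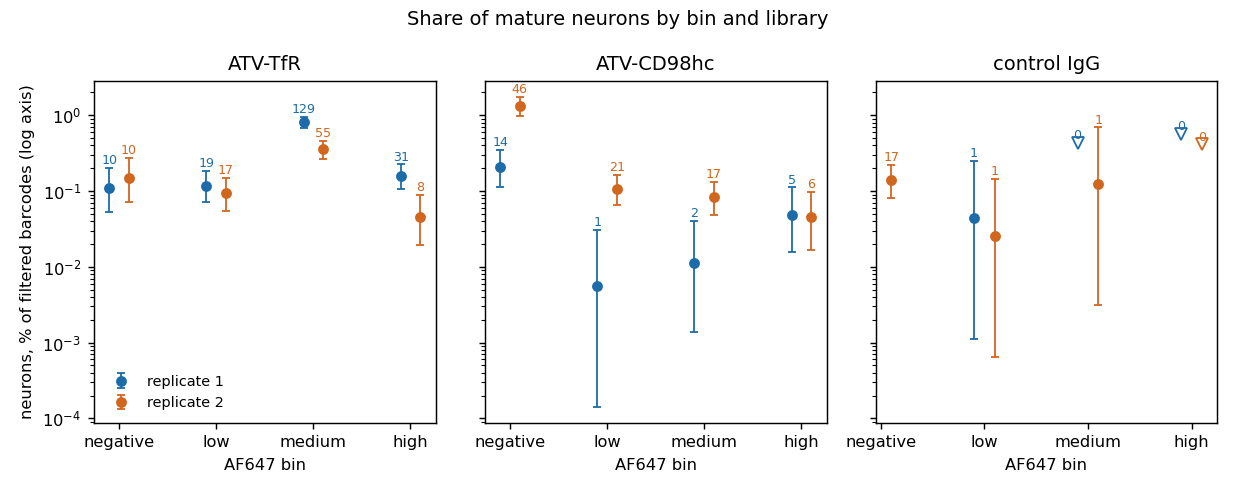
Neurons as a percent of filtered barcodes (log axis) in each AF647 bin, one panel per treatment. Points are libraries with their neuron count, bars are exact 95% binomial intervals, and open triangles are the limits that a count of 0 allows; the 129 and 55 neurons of the ATV-TfR medium bin and the 14 and 46 of the ATV-CD98hc negative bin are the highest of their pools.

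A straight trend over the 4 bins did not describe either pattern. The slope per bin was that of the logit of the neuron share, with 0.5 added to the neurons and to the other barcodes of each library. It was 0.03 in ATV-TfR (exact permutation test of bin labels, two-sided p = 0.923, adjusted p = 0.948 over 3 trends). The slope was -0.70 in ATV-CD98hc (exact p = 0.177, adjusted p = 0.531) and -0.02 in control IgG (exact p = 0.948). Each positive control IgG library held 0 or 1 neuron, so the added 0.5 and the library size weigh heavily on that slope and its sign. The arrangements of the libraries allow no p below 0.00079 for the ATVs or 0.0016 for control IgG.

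Neuron numbers were then compared bin by bin with edgeR's quasi-likelihood test, fitted over 14 cell classes that together take in every filtered barcode but 3, with the barcodes of each library as offset and Benjamini-Hochberg adjustment over the classes. Within ATV-CD98hc, neurons were a smaller share of all filtered barcodes in every positive bin than in the negative bin. The log2 difference from the negative bin was -3.58 in the low bin (SE 1.06, adjusted p = 0.012, 42.9% of the classes called), -3.81 in the medium bin (SE 1.08, adjusted p = 0.0043, 71.4% called) and -3.88 in the high bin (SE 1.17, adjusted p = 0.0056, 100% called). Since 6 to 14 of the 14 classes were called in these contrasts, a call by itself did not set neurons apart. Counted over barcodes outside the endothelial class, the medium and high bins were not called (-1.94 and -1.29, edgeR, adjusted p = 0.12 and 0.31). Without replicate 2 of ATV-CD98hc the high bin's difference was -2.10 and was no longer called (adjusted p = 0.12).

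Within ATV-TfR, the medium bin had a log2 difference of 2.16 from the negative bin that missed the threshold (SE 1.01, adjusted p = 0.069, 64.3% of the classes called). With the pool as a block, which compares bins of the same mice, it was 2.17 and passed (adjusted p = 0.0030). The low bin differed by -0.28 (SE 1.15, adjusted p = 0.81, 71.4% of the classes called) and the high bin by -0.31 (SE 1.15, adjusted p = 0.79, 64.3% called), both within their errors. Leaving out replicate 1 of ATV-TfR, which holds 129 of the 184 medium neurons, gave 1.24 for the medium bin (adjusted p = 0.56), and leaving out either ATV-CD98hc replicate gave 2.16 and a call (adjusted p = 0.011).

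Between the antibodies, neurons were more frequent with ATV-TfR in the medium bin and the 2 treatments did not differ beyond error in the low and high bins. The log2 difference, ATV-TfR minus ATV-CD98hc, was 3.55 in the medium bins (SE 1.00, adjusted p = 0.0055, 64.3% of the classes called), 0.87 in the low bins (SE 1.11, adjusted p = 0.52, 21.4% called) and 1.14 in the high bins (SE 1.26, adjusted p = 0.44, 28.6% called). In the negative bins it was -2.43 and missed the threshold (SE 1.08, adjusted p = 0.070, 42.9% called). That value was -0.70 without replicate 2 of ATV-CD98hc, the library of 46 neurons, and -3.35 without replicate 1. With the pool as a block the negative bins differed by -2.17, which passed (edgeR, adjusted p = 0.011). Without replicate 1 of ATV-TfR the difference in the medium bins was 2.85 and was not called (adjusted p = 0.11).

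The step from negative to medium itself differed between the antibodies. The log2 difference of medium minus negative was larger by 5.98 in ATV-TfR (SE 1.47, adjusted p = 0.0022, 78.6% of the classes called), and it was called in 17 of 18 alternative settings. The exception was leaving out replicate 1 of ATV-TfR, which gave 5.09 (adjusted p = 0.062). The same differences for low minus negative, 3.30 (SE 1.56, adjusted p = 0.097, 42.9% called), and high minus negative, 3.57 (SE 1.65, adjusted p = 0.095, 42.9% called), missed the threshold. With the pool as a block they were 3.53 and 3.73 and passed (edgeR, adjusted p = 0.0055 for both). The block has a separate term for the replicates of each treatment, and pools are not paired between treatments. Each of these values rests partly on the ATV-CD98hc negative bin, whose 2 libraries (0.209% and 1.33%) have the largest SD in percent of the 8 ATV groups. By factor, the ATV-CD98hc replicates differed more in the low bin (0.00554% and 0.106%) and the medium bin (0.0112% and 0.0826%).

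None of 11 contrasts with control IgG called neurons with edgeR (63% of the tests over all classes in these contrasts were called). No contrast had an unadjusted p under 0.05 for neurons, DESeq2 called 0, and the smallest adjusted p was 0.226. The standard errors of these log2 differences ran from 1.26 to 11.5, with 20 control IgG neurons in all. Absence of a difference from control IgG therefore cannot be read from these contrasts. Leaving out replicate 1 of ATV-CD98hc gave 1 call.

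A neuron's share of a bin also depends on how many other cells share the bin. Endothelial cells, which line the capillaries, filled 0.601% of ATV-TfR negative barcodes, 1.17% of low, 14.1% of medium and 82.0% of high ones. In ATV-CD98hc they filled 0.945%, 9.32%, 73.4% and 83.9%. The high bin of ATV-TfR and the medium and high bins of ATV-CD98hc were thus mostly endothelial. Counted over barcodes outside the endothelial class, the ATV-TfR high bin differed from negative by 2.10 in place of -0.31 (adjusted p = 0.13), and the medium bin by 2.37 (adjusted p = 0.043). For ATV-CD98hc the medium bin differed by -1.94 (adjusted p = 0.12) and the high bin by -1.29 (adjusted p = 0.31), neither of them called, while the low bin, at -3.45, was called (adjusted p = 0.015). The medium bins of the 2 antibodies then differed by 1.88 (adjusted p = 0.093), and the difference of medium minus negative was 4.31 (adjusted p = 0.019).

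**Figure D2:**
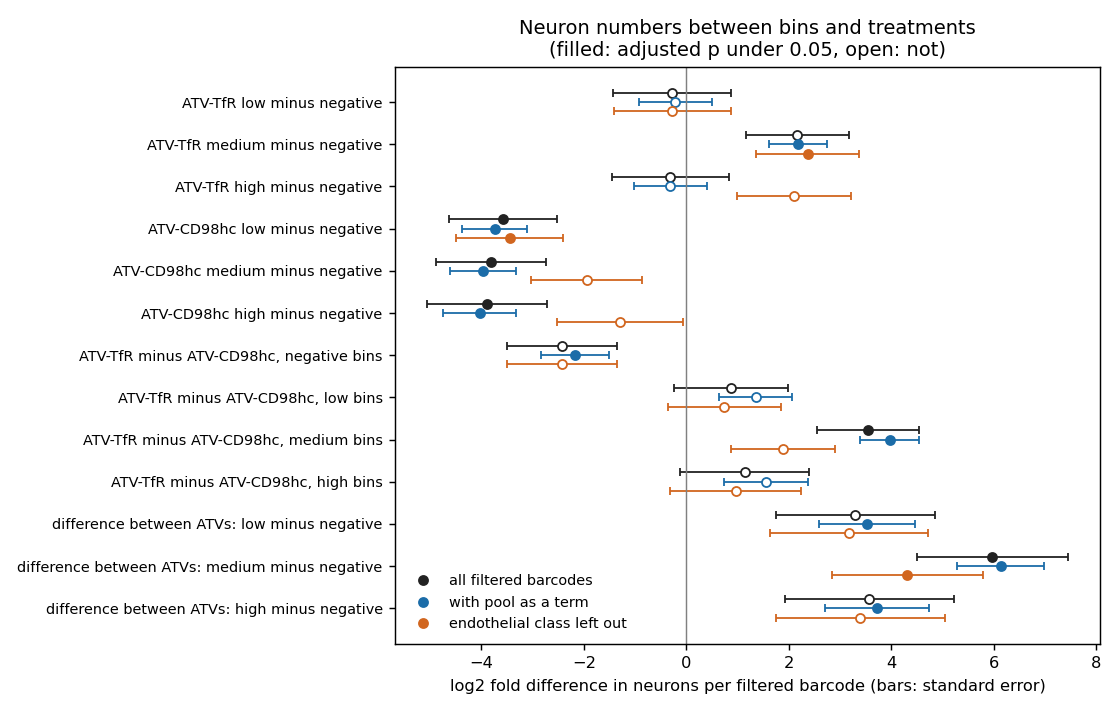
Log2 fold differences in neurons per filtered barcode for each contrast (x axis), with bars of 1 standard error and filled points where the adjusted p was under 0.05. Black gives all filtered barcodes, blue the fit with the pool as a term and orange the fit over barcodes outside the endothelial class; the difference between ATVs in medium minus negative is filled in all 3 (5.98, 6.14 and 4.31).

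Since each pool mixed a male and a female, neurons were split by Xist and Y-linked genes. Xist alone marked 142 neurons, Y-linked genes alone marked 125, 39 had both and 105 had neither. The medium bin had a higher neuron share than the negative bin in 4 of 4 ATV-TfR animals, counting assigned neurons alone. In replicate 1 the female went from 0.0479% (2 neurons) to 0.657% (49) and the male from 0.0428% (1) to 1.26% (56). In replicate 2 the female went from 0.155% (4) to 0.203% (14) and the male from 0.0939% (2) to 0.415% (19). The negative shares thus rest on very few neurons, and the step of the replicate 2 female is small beside such counts. In ATV-CD98hc no animal of 4 had a higher share in any positive bin than in its negative bin. Those positive bins held 0 to 6 assigned neurons per animal, and 27 of the 46 neurons of negative replicate 2 had neither kind of UMI. Neurons with neither kind of UMI belong to no animal here, and in ATV-TfR replicate 1 they were 6 of 10 in the negative and 6 of 129 in the medium bin. Among such barcodes the neuron share was 0.281% in negative and 0.183% in medium in replicate 1, the other direction, and 0.226% and 0.538% in replicate 2. Mice of 1 pool were sorted together, so these are not separate preparations.

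The labels give about 30% AF647-positive cells in ATV-TfR and 20% in ATV-CD98hc. Weighting each bin's share of neurons by these percents, with the positive cells of ATV-TfR split evenly over 3 bins, would place 58.1% and 32.04% of the neurons of the ATV-TfR pools in the positive gates. For ATV-CD98hc, where the split over the gates is not given in the sources used here, the same sum lies between 0.657% and 5.41% in replicate 1 and between 0.838% and 1.96% in replicate 2. These are approximate, since the percents are rounded and belong to treatments and not to pools. Counting error is not included, so the ranges are not limits. The ends for ATV-CD98hc replicate 1 use positive-bin shares of 1 neuron (low bin) and 5 neurons (high bin).

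Neurons of the bins differed in how much RNA was captured. The median was 1438 UMIs in ATV-TfR negative, 4443 in low, 9199.5 in medium and 12367 in high neurons. In ATV-CD98hc the medians were 1991, 1520, 1843 and 1207 UMIs, and the control IgG negative neurons had a median of 8824. The ATV-CD98hc values come mostly from replicate 2, with 1591.5, 1486, 1594 and 1439 UMIs. Replicate 1 had medians of 9419.5, 8135 and 11229 over its 14, 1 and 2 neurons of the first 3 bins, and 1207 over 5 neurons of the high bin. Within ATV-TfR both replicates had the lowest median in the negative bin, at 2607.5 and 1150.5 UMIs, and the highest in the high bin, at 15918 and 5995. An alternative added after the data had been seen kept only filtered barcodes of 3000 UMIs or more. It left out 16 of 20 ATV-TfR negative neurons and 24 of 184 medium ones. The ATV-TfR log2 difference of medium minus negative was then 4.17 in place of 2.16 (edgeR, adjusted p = 0.0062).

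Neurons low in mitochondrial RNA were more frequent among the shallow ones. Of the 411 neurons, 138 (33.6%) had under 3000 UMIs, and 44 (10.7%) had under 0.5% of UMIs from mitochondrial genes, against 1.35% of the other filtered barcodes. Among shallow barcodes that share was 29.7% in neurons and 1.84% in the others, and in deeper neurons it was 1.10%. Over all depths, neurons under 0.5% were 8 of 11 (72.7%) in ATV-CD98hc high, 6 of 19 (31.6%) in medium, 7 of 22 (31.8%) in low and 3 of 60 (5%) in negative. In ATV-TfR their pooled share was highest in the negative bin, with 7 of 20 (35%) in negative, 2 of 36 in low, 5 of 184 (2.72%) in medium and 4 of 39 in high. Replicates 1 and 2 differed, with 1 of 10 and 6 of 10 in negative and 1 of 31 and 3 of 8 in high. The few neurons counted in ATV-CD98hc positive bins were thus mostly small barcodes, some of them almost without mitochondrial UMIs. Whether they are whole cells, and the part of RNA quality in the differences between bins, was not tested.

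**Figure D3:**
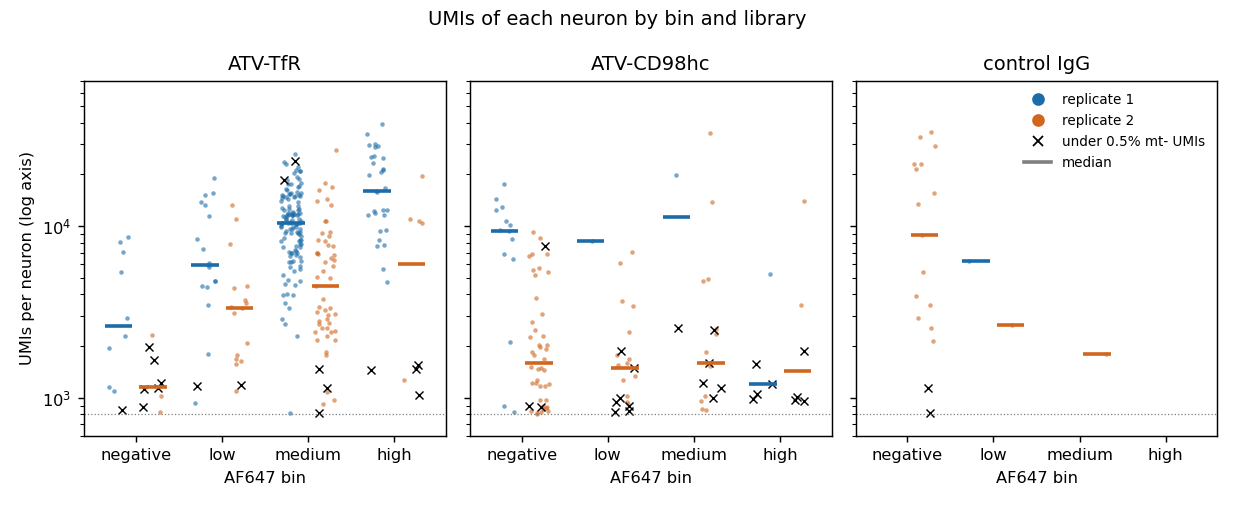
UMIs of each neuron (log axis) by AF647 bin and library, one panel per treatment, with horizontal lines at library medians, crosses for neurons with under 0.5% mitochondrial UMIs and a dotted line at the 800 UMIs of the filter. ATV-TfR medium and high neurons lie mostly above 3000 UMIs, and most of the 11 ATV-CD98hc high neurons are crosses below that depth.

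Glutamatergic neurons outnumbered GABAergic ones. Neurons were classed by UMIs of Slc17a7, Slc17a6 or Slc17a8 against Gad1, Gad2 or Slc32a1. Of them 211 (51.3%, exact 95% interval 46.4% to 56.3%) were glutamatergic, 64 (15.6%) GABAergic, 6 held both and 130 held neither. After thinning to 800 UMIs the shares were 16.4% and 7.69%, and 75.9% had neither, so the split is known only for neurons with enough RNA. In the ATV-TfR medium bin 115 were glutamatergic and 35 GABAergic, in the high bin 30 and 3, in the low bin 17 and 6, and in the negative bin 5 and 1. ATV-CD98hc had 21 and 5 in the negative bin, 6 and 5 in the low, 6 and 4 in the medium, and 3 and 2 in the high bin, and control IgG negative had 8 and 3. Asking for at least 2 UMIs of the class markers left 0 GABAergic neurons of 20 in ATV-TfR negative.

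Among thinned neurons with 1 class, the GABAergic share in ATV-TfR medium was 31.7% ± 4.72 (SD, n = 2 libraries, 35.0% and 28.4%). Only 3 ATV-TfR libraries held enough neurons for a trend of this share over the bins. The slope was -0.89 (exact permutation p = 0.333, the smallest that 3 arrangements allow), so no trend could be shown.

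Genes of glutamatergic neurons varied in how often they were found, with a median of 22.99% of neurons over the 10 genes of the list. Camk2a, the kinase of excitatory synapses, had a UMI in 329 neurons (80.0%), Nrgn, a calmodulin-binding protein of forebrain neurons, in 223 (54.3%), and Slc17a7 in 200 (48.7%). The upper-layer genes Cux2 and Rorb had a UMI in 190 and 184 neurons. Of 9 glutamatergic markers, 3 or more were found in 217 neurons (52.8%), and no neuron held 3 or more of both the glutamatergic and the GABAergic markers. In microglia thinned to 800 UMIs, Slc17a7 was found in 0.150% and Camk2a in 1.63% of cells, against 14.5% and 42.3% of thinned neurons.

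GABAergic genes were found in fewer neurons. Gad1 had a UMI in 50 neurons (12.2%), Gad2 in 52 (12.7%) and the vesicular GABA transporter Slc32a1 in 21. Of the striatal genes, Rgs9, a regulator of dopamine receptor signalling, was found in 90 neurons, Ppp1r1b, which encodes DARPP-32, in 37, and the dopamine receptor genes Drd2 and Drd1 in 15 and 6. Pde10a and Foxp1, also on the striatal list, had a UMI in 333 and 334 neurons. At least 3 striatal markers were found in 44 neurons, 34 of them without Slc17a7, and 29 of the 44 lay in ATV-TfR medium. The interneuron genes Vip, Sst and Pvalb had a UMI in 7, 3 and 1 neurons, and Adarb2 in 62.

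Few neurons met the marker rules of rarer kinds. At least 3 Cajal-Retzius markers were found in 4 neurons, and Reln, the secreted protein of these cells, in 51 neurons. Th, the first enzyme of dopamine synthesis, had a UMI in 3 neurons and the dopamine transporter gene Slc6a3 in 0, which allows a share of up to 0.730% of neurons with a UMI. No neuron held 3 of the 9 peptidergic markers, and 2 held 3 of the thalamic or midbrain markers. A neuron with 126 UMIs of Avp, 1 of the peptidergic markers, did not meet the peptidergic rule. That rule thus cannot show that peptidergic neurons were absent.

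By bin, subtype genes were read after neurons had been thinned to 800 UMIs. Camk2a was found in 47.4%, 33.4%, 44.6% and 38.1% of ATV-TfR neurons from negative to high, and in 46.2%, 33.0%, 44.9% and 32.6% of ATV-CD98hc neurons. Slc17a7 was found in 13.1%, 10.5%, 15.6% and 16.6% and in 14.1%, 11.5%, 16.4% and 7.51%. Reln was found in 20.2%, 11.1%, 4.06% and 1.48% of ATV-TfR neurons from negative to high, and in 6.76%, 5.63%, 5.26% and 11.5% of ATV-CD98hc neurons. Adarb2 was found in 29.9% of ATV-CD98hc medium and 23.4% of control IgG negative neurons, against 8.01% in ATV-TfR medium. These are shares over 11 to 184 neurons of 1 or 2 libraries and were not tested.

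**Figure D4:**
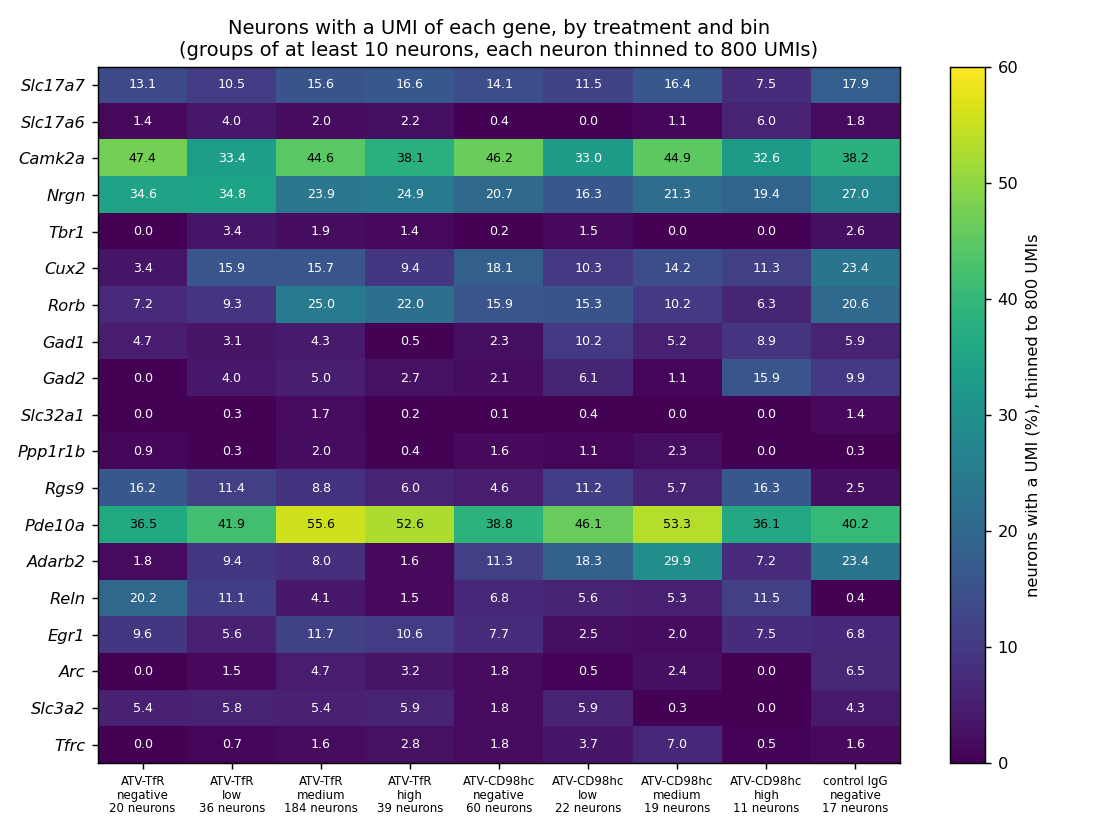
Percent of neurons with a UMI (colour and number) of 19 named genes in each treatment and bin with at least 10 neurons, after each neuron was thinned to 800 UMIs. Camk2a runs from 32.6% to 47.4% over the groups, and Slc3a2 is at 0% in ATV-CD98hc high and 5.9% in ATV-TfR high.

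Immediate early genes, which neurons switch on with activity and also during tissue handling, were seen in a minority. Egr1 had a UMI in 151 neurons (36.7%), Arc in 81 (19.7%), Fos in 57 (13.9%) and Npas4 in 49 (11.9%). In thinned neurons Egr1 was found in 9.60%, 5.60%, 11.7% and 10.6% of ATV-TfR neurons from negative to high, and in 7.68%, 2.54%, 1.95% and 7.51% of ATV-CD98hc neurons. Of 18 such genes, 10 were found more often in thinned neurons than in thinned microglia.

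The receptors of both antibodies were lower in neurons than in endothelial cells. Tfrc had 87 UMIs in 59 neurons (14.4%), a level of 26.2 CPM (exact Poisson interval 21.0 to 32.3, counting error only), against 423 CPM in endothelial cells, 49.8 in astrocytes and 24.9 in microglia. Slc3a2 had 276 UMIs in 129 neurons (31.4%), a level of 83.2 CPM (73.6 to 93.6), against 421 CPM in endothelial cells, 259 in astrocytes and 167 in microglia. These levels are pooled over treatments and bins that give different shares of each class. In ATV-TfR medium, Tfrc was 20.2 CPM in neurons, 117 in endothelial cells and 13.5 in microglia, and in ATV-CD98hc medium it was 20.0, 525 and 113. The measured level of both genes in neurons lay below that of endothelial cells, and for Slc3a2 below that of either kind of glia, in each of the 8 ATV bins, although the counting intervals of some bins with few UMIs reach the glial levels. For Tfrc the order of neurons and microglia turned between bins. How transcripts of the human part of a knock-in allele were counted is not given in the sources used here.

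In ATV-TfR, Tfrc had 0 UMIs in both negative libraries, 1 and 1 in the low, 29 and 7 in the medium (20.1 and 20.8 CPM) and 19 and 8 in the high libraries (34.6 and 140 CPM). The 8 UMIs came from 2 neurons, and 5 of 31 and 3 of 8 neurons of these high libraries had 1% or more of their UMIs from the endothelial list, against 2 of 184 in medium. The part of endothelial RNA in this was not tested. The negative libraries hold few UMIs, and 3 counts there would be 76.2 and 225 CPM, so a lower level was not detectable at this depth. In ATV-CD98hc, the negative libraries had 4 UMIs each (32.5 and 32.7 CPM). Summed per pool, Tfrc was 22.5 and 33.7 CPM in ATV-TfR and 24.4 and 34.0 CPM in ATV-CD98hc. The ranges overlapped, with a log2 difference of -0.26 (edgeR, SE 0.48, adjusted p = 0.99).

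Slc3a2 separated the 2 knock-in lines in level but not by the test over all genes. Summed per pool it was 95.9 and 86.3 CPM in ATV-TfR (209 and 41 UMIs) and 30.6 and 22.7 CPM in ATV-CD98hc (5 and 6 UMIs), without overlap. The log2 difference was 1.77 (edgeR, SE 0.39, unadjusted p = 0.0035, adjusted p = 0.76 over 7058 genes). Without the ATV-CD98hc replicate 1 pool of 22 neurons it was 2.05 and was called (edgeR, adjusted p = 0.0036), but that leaves 1 ATV-CD98hc pool, assumed to vary like the ATV-TfR pools. Leaving out any other pool did not give a call. Over all 11 alternatives, 3 gave a call, the fit without ATV-CD98hc replicate 1 among them. Asking for pools of 50 neurons or more was another, but it drops the same pool and so repeats that fit. By bin the level was 114, 87.7, 88.3 and 112 CPM from negative to high in ATV-TfR, and 28.5, 59.1 and 9.98 CPM in the first 3 bins of ATV-CD98hc, with 0 UMIs in the high bin, where 3 counts would be 92.9 CPM. Other classes of the negative bins also had less Slc3a2 in ATV-CD98hc mice, with 105 against 211 CPM in microglia and 134 against 292 CPM in astrocytes. Since the antibody and the knock-in coincide, their parts in this cannot be told apart.

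Most other genes of both uptake routes were found less often in thinned neurons than in thinned microglia. Of 8 CD98 chain genes 2 were found more often in thinned neurons than in thinned microglia, of 13 measured genes of transferrin and iron 3, and of 8 antibody receptor genes 0. Without thinning, 7 of the 8 CD98 chain genes and 8 of the 13 iron genes had a UMI in at least 10% of neurons. The light chain gene Slc7a5 had a UMI in 65 neurons, and the iron storage gene Fth1 in 265. The neonatal Fc receptor gene Fcgrt, which recycles antibodies, had a UMI in 36 neurons (8.76%), and its partner B2m in 61 (14.8%). Thinned, Fcgrt was found in 1.07% of neurons and 5.97% of microglia, and B2m in 1.91% and 31.8%, so neurons lay below microglia for both.

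UMIs of genes on the marker lists of other cell classes were present in some neurons of each ATV bin. Whether they came from other cells or from the neuron itself was not tested. Of the 411 neurons, 78 (19.0%) had 1% or more of their UMIs from the marker list of another class, 48 of them from the 12 astrocyte genes and 13 from the 12 endothelial genes. The endothelial list reached 1% in 8 of 39 neurons (20.5%) of ATV-TfR high, 2 of 184 in medium, 1 of 36 in low and 0 of 20 in negative. In ATV-CD98hc it did so in 0 of 60, 2 of 22, 0 of 19 and 0 of 11 neurons from negative to high. The astrocyte list reached it in 3 of 20 neurons (15%) of ATV-TfR negative, 3 of 36 (8.33%) in low, 28 of 184 (15.2%) in medium and 0 of 39 in high, where astrocytes were 14.2%, 57.3%, 54.8% and 2.67% of filtered barcodes. In ATV-CD98hc it did so in 7 of 60, 5 of 22, 0 of 19 and 0 of 11. The median share of UMIs from the endothelial list was 0% in both ATV-CD98hc negative libraries. It was 0.103% and 0.174% in medium and 0.101% and 0.106% in high, where 73.4% and 83.9% of filtered barcodes were endothelial.

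Of the markers of other cells in the rule, each was found in a minority of neurons, with Slc1a3 in 90, Gja1 in 64, Cldn5 in 52, Aqp4 in 51 and Flt1 in 40. Other genes of these lists reached more, with the choroid plexus gene Ttr in 234 neurons, the endothelial list's Bsg in 222 and the astrocyte list's Slc1a2, a glutamate transporter gene, in 301. The part of this RNA in the position of a neuron in the sort was not tested. Kept to the 226 neurons without a UMI of the 8 markers of other cells in the rule, an alternative added after the data had been seen, the log2 difference between the ATVs in medium minus negative was 6.18 (edgeR, adjusted p = 0.0011).

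**Figure D5:**
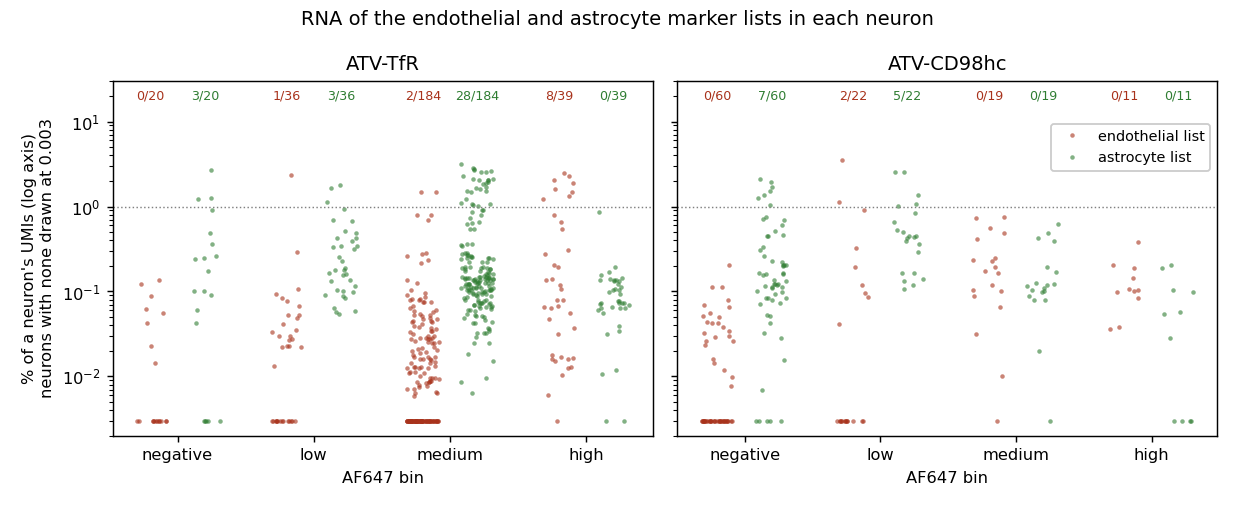
Percent of each neuron's UMIs (log axis, neurons with none drawn at 0.003) from the endothelial and astrocyte marker lists, by AF647 bin, with the number of neurons at or above 1% (dotted line) over the number of neurons. The endothelial list reaches 1% in 8 of 39 ATV-TfR high neurons and the astrocyte list in 28 of 184 ATV-TfR medium neurons.

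Expression within neurons could be compared between bins only where libraries held enough of them. For ATV-TfR medium against negative, libraries with 10 or more neurons were used, an alternative added after the data had been seen because both negative libraries hold 10. No gene was called with edgeR (0 of 5834, 0%), 429 had an unadjusted p under 0.05, and DESeq2 called 8. With the pool as a block 34 genes were called, 10 higher and 24 lower. Of the neuronal list, 12 of 18 pan-neuronal genes had a value above 0, beside 3456 of all 5834 genes, and none was called. Of genes of other cells, 10 of 10 tested endothelial and 0 of 10 oligodendrocyte genes had a value above 0, also without a call.

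Between treatments, with all neurons of a pool summed, no gene was called either (edgeR, 0 of 7058, 0%), 424 had an unadjusted p under 0.05, and DESeq2 called 3. The count changed with the pools used. It was 582 without the ATV-CD98hc replicate 1 pool of 22 neurons, 930 without ATV-CD98hc replicate 2, 40 without ATV-TfR replicate 1 and 0 without ATV-TfR replicate 2, so the treatments were not compared gene by gene further.

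For ATV-CD98hc low against negative, 1 library on each side had 20 or more neurons (replicate 2, 21 and 46 neurons with 42610 and 122251 UMIs). The spread between libraries was taken from the ATV-TfR medium pair, so these lone libraries are assumed to vary like that pair. With edgeR 146 of 8891 genes were called (1.64%), 52 higher and 94 lower in the low bin. The genes called higher included the endothelial genes Ly6c1 (33 UMIs in 3 neurons against 0, at least 31.6-fold higher) and Ly6a (24 against 0, at least 22.95-fold). Those called lower included genes of smooth muscle and antigen-presenting cells, such as Acta2 (0 against 271 UMIs, at least 31.5-fold lower) and Cd74 (0 against 207, at least 24.0-fold). The floor in these bounds is 3 counts in the library. Each of these named genes had 0 UMIs on 1 side, so that library did not help it pass the low-count filter. Their values describe the lone libraries and are not a test of change.

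Some of these differences came from single neurons. In the negative library 178 of the 271 Acta2 UMIs (65.7%) and 206 of the 207 Cd74 UMIs (99.5%) came from 1 neuron each. Of the 146 called genes, 29 (19.9%) had over 50% of their UMIs in 1 neuron and 27 belonged to the lists of other cell classes. Of neuronal lists, 0 of 18 pan-neuronal genes were called, and Kcnd2, a potassium channel gene, was called higher (63 against 53 UMIs, log2 difference 1.60, SE 0.35, adjusted p = 8.6e-04). When libraries with 10 or more neurons shared the fit, 0 genes were called with edgeR, and 194 had an unadjusted p under 0.05.

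The 3 positive bins of ATV-CD98hc replicate 2 were also summed and set against its negative library (44 against 46 neurons). Each side is again 1 unit, and the spread was taken from the positive sides of the ATV-TfR pools. With edgeR 554 of 7940 genes were called (6.98%), 240 higher and 314 lower, with 1 neuron holding 24.5% of the positive side's UMIs. When pool sides of 10 or more neurons were used, so that 8 units shared the fit, 0 of 5981 genes were called with edgeR and 120 had an unadjusted p under 0.05. In the fit of 2 lone units the called neuronal genes included Map2 (108 against 27 UMIs, log2 difference 1.75, SE 0.34), the vesicle protein gene Syp (49 against 10, 2.04, SE 0.45) and the RNA-binding protein gene Elavl4 (27 against 5, 2.18, SE 0.59). A single neuron held 28.7%, 57.1% and 48.1% of the UMIs of these 3 genes on the positive side. Of the lists, 14 of 18 pan-neuronal, 11 of 12 glutamate receptor, 10 of 12 GABA receptor and 12 of 15 channel genes had a value above 0. Of other neuronal lists, 5 of 8 striatal and 2 of 6 interneuron genes did, beside 4042 of all 7940 genes. Penk and Cck, from those lists, were lower (log2 differences -8.37 and -3.80), on 7 and 12 UMIs of the negative library.

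Genes of other cells were called in the same fit of lone units. Of 10 tested endothelial genes 10 had a value above 0, while 0 of 10 oligodendrocyte and 0 of 7 microglial genes did. For each of the microglial genes Ctss, C1qb, C1qa and C1qc, 1 neuron held most of the negative library's UMIs (95%, 92.9%, 90.6% and 81.0%). The called endothelial genes include Cldn5 and Flt1 and the oligodendrocyte genes Mog, which the selection rule used, so those 3 are a description. Ftl1, Fth1 and Trf, which store or carry iron, had log2 differences of -1.75, -1.86 and -4.90. They were the 3 called genes among 8 tested of the iron list, and Trf is also abundant in oligodendrocytes. The called gene with the largest difference upward was Avp, the vasopressin gene, with 126 UMIs against 0 (at least 36.01-fold higher). All 126 lay in 1 neuron of the high bin, so the value describes that neuron. Pde6g, Cngb3, Gnb3 and Tph1, also among the 10 largest upward, had UMIs in only 1 or 2 positive neurons and 0 in the negative library. Of these, Pde6g, Gnb3 and Tph1 are genes of the photoreceptor and pinealocyte group given under other observations. Over 50% of the UMIs lay in 1 neuron for 135 of the 554 genes (24.4%), and DESeq2 called 28.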

How the data were processed

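Values came from 1 deposited matrix of raw UMI counts, which the authors had not normalized. The other deposited files (unit: other) list genes, barcodes and libraries. The submitters' processing notes name Cell Ranger 7.1.0, Seurat 4 and 5, and the builds mm10 and GRCm38. No coordinates are given. The neurons, gene lists and tests were chosen with earlier results of these data known.

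Filtered barcodes were put into 14 classes by marker UMIs. For neuron numbers, the quasi-likelihood test of edgeR 4.0.16 in R 4.3.3 (with limma 3.58.1) took all 23 libraries in 1 fit with a mean for each treatment and bin. Adjusted p-values below 0.05 were called. Expression was compared on UMIs summed per library or pool with at least 20 neurons, with TMM factors and edgeR's filter on low counts; DESeq2 1.42.0 was an alternative. Since few libraries reached 20 neurons, fits with 10, and pools summed over bins, were added after the data had been seen. Up to 10 called genes per direction, by size, and members of fixed lists could be named; some items are not reported here. Scrublet ran in scanpy 1.11.5 on Python 3.11.15, and marked barcodes were kept. Both scripts were tested on simulated data. Exact intervals and the limit of 3 counts for a count of 0 cover counting error only. The labels name each library's pool, so replicate numbers pair bins within a treatment. P-values of neuron numbers rest on the spread between libraries of the same treatment and bin, from at most 2 pools of 2 mice. Without the block, the bins of a pool enter that fit as separate libraries. The ATV-CD98hc expression fits with 1 unit on each side take their spread from ATV-TfR. Trend p-values come from permuted bin labels. Library depth ranged from 1861238 to 90307818 UMIs.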

Additional observations from a re-analysis of the deposited data

Results flagged for a closer look

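One result met a rule for a closer look, a difference between groups under the same contrast. The change in neurons per filtered barcode from the negative to the medium bin differed between the antibodies by 5.98 on the log2 scale (ATV-TfR minus ATV-CD98hc, edgeR, SE 1.47, adjusted p = 0.0022 over 14 classes). Of the 14 classes 11 (78.6%) were called in this contrast, 7 of them, with neurons, in this direction and 4 in the other. The call by itself thus did not set neurons apart. The medium bin was above the negative bin in 2 of 2 ATV-TfR pools and below it in 2 of 2 ATV-CD98hc pools. In both ATV-CD98hc pools the medium bin was mostly endothelial (mean 73.4% of barcodes), and its neurons had a median of 1843 UMIs against 9199.5 in ATV-TfR medium. The part of these in the difference was not tested.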

How the results depend on the processing

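Of 357 recomputed values, 273 kept their direction and their side of the threshold (or, for counts, stayed within 1.5 times), 6 lost a call, 32 gained one, 23 changed sign and 23 counts or shares moved. The cause was not tested unless given. The difference between the ATVs in medium minus negative was called in 17 of 18 alternatives, and the ATV-CD98hc low bin in 18 of 18.

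Counting barcodes outside the endothelial class gave 2.10 for ATV-TfR high minus negative, 2.37 for its medium bin (adjusted p = 0.043), -1.94 and -1.29 for ATV-CD98hc medium and high (adjusted p = 0.12 and 0.31) and 1.88 for the medium bins of both ATVs (adjusted p = 0.093). With DESeq2, ATV-TfR medium minus negative was 2.16 (adjusted p = 0.040), the negative bins differed by -2.54 (0.030), and the differences between ATVs were 3.45 for low (0.034) and 3.68 for high (0.022). With 6 of 8 markers these were 3.21 (0.013), -3.01 (0.042), 4.25 (0.046) and 4.79 (0.034), while ATV-TfR low became 0.48 and high 0.61. Alternatives chosen after seeing the data follow. Filtered barcodes of 3000 UMIs or more gave 4.17 for ATV-TfR medium, 1.42 for low and 1.80 for high. They gave 5.29 and 6.05 for the differences between ATVs in low and high. Neurons with at least 0.5% mitochondrial UMIs gave 2.76, 0.27, 0.17, 4.30 and 5.75 for the same, and -2.98 for the negative bins. Those bins differed by -2.36 with a ratio of 1 and by -2.47 without the ratio clause, which also gave 3.70 for the difference in high. Without any UMI of the other-cell markers, the difference in low was 4.25 and the high bins differed by -0.059.

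The slope over the bins changed sign in ATV-TfR with at most 5% mitochondrial UMIs (-0.021) and without other-cell UMIs (-0.15). In control IgG it did so with 5 markers (0.10), 6 markers (0.13), at most 5% mitochondrial UMIs (0.04), 3000 UMIs (0.33), no other-cell UMIs (0.081) and at least 0.5% mitochondrial UMIs (0.012). None of these slopes passed its test.

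Counts of called genes moved most. ATV-CD98hc low against negative gave 10 with DESeq2, 65 without Scrublet-marked barcodes and 0 with libraries of 10 neurons. The positive bins of ATV-CD98hc against negative gave 28 with DESeq2, 300 with 10 UMIs in every library, 112 with a ratio of 10 and 0 with 10 neurons. ATV-TfR medium against negative gave 8 with DESeq2, 53 with no filter on low counts and 1 with 10 UMIs in every library. The pools gave 3 with DESeq2, 183 with no filter, 47 with a ratio of 10 and 582 with 50 neurons. The GABAergic share of ATV-TfR medium was 22.4% without thinning.

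Replicate numbers pair bins of the same mice within a treatment. Replicate 1 had the higher neuron share in 3 of 4 ATV-TfR bins and replicate 2 in 3 of 4 ATV-CD98hc bins. With this block, ATV-TfR medium minus negative was 2.17 (adjusted p = 0.0030), the negative bins differed by -2.17 (0.011), the differences between ATVs were 3.53 for low and 3.73 for high (0.0055 each), and ATV-TfR medium against negative called 34 genes. The block changed no other call.

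Leaving out each replicate in turn gave 1.24 to 2.84 for ATV-TfR medium minus negative, -0.67 to 0.080 for low and -1.70 to 0.51 for high. For ATV-CD98hc it gave -4.96 to -3.56 for low, -4.08 to -3.79 for medium and -4.85 to -2.10 for high. The ATVs differed by -3.35 to -0.70 in the negative bins, -0.0046 to 3.98 in the low, 2.80 to 5.54 in the medium and -0.026 to 1.75 in the high bins, and the differences from negative by 2.96 to 4.68, 5.09 to 6.69 and 1.79 to 4.54. The contrasts with control IgG gave 0 to 1 calls. The slopes ran from -0.22 to 0.29 in ATV-TfR, -1.02 to -0.37 in ATV-CD98hc and -0.064 to 0.18 in control IgG. Called genes ran from 0 to 54 in ATV-TfR medium and 0 to 930 between pools, and the GABAergic share from 28.4% to 35.0%. Tfrc between pools was -0.38 to 0.041 (0.041 without ATV-CD98hc replicate 2). No ATV-CD98hc or control IgG library held more than 46 neurons.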

Other observations

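A group of 10 neurons shared genes of photoreceptors and pinealocytes. They held at least 3 of Sag (arrestin of the light response), Pde6g, Tph1 (the first step of serotonin and melatonin synthesis), Crx and Gnb3, genes chosen after their values were seen. Sag, Tph1 and Gnb3 each had a UMI in 10 of the 10, and Pde6g and Crx in 9. All 10 held Slc17a6, 1 held Camk2a and 0 held Nrgn, and their median was 11980 UMIs. In ATV-TfR, 4 lay in medium replicate 1 and 3 in high replicate 1. ATV-CD98hc had 1 in medium replicate 2 and 1 in high replicate 2, and control IgG had 1 in negative replicate 2. Another 6 filtered barcodes outside the neurons met the same rule. Without these 10 members, the difference between ATVs in medium minus negative was 6.02 (edgeR, adjusted p = 0.0018).

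Several genes owed most of their neuronal UMIs to a single barcode. Avp had 126 of its 128 UMIs in 1 neuron of ATV-CD98hc high replicate 2. Ttr, the transthyretin gene of the choroid plexus, had 2470 of 3807 UMIs in 1 neuron of ATV-TfR medium replicate 1, although 234 neurons held at least 1 UMI. Cd74 had 206 of 236 UMIs and Acta2 178 of 274 in 1 neuron each of ATV-CD98hc negative replicate 2.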
